A study of Mus musculus with 6 samples.

Results

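Nutrient carriers move glucose, amino acids and monocarboxylates such as lactate across membranes, and the carriers described here are the genes whose symbol begins with Slc1a, Slc2a, Slc3a, Slc7a, Slc16a or Slc38a followed by a number. Members were taken from the probe sets with a single gene symbol in the platform annotation, which gave 59 genes read by 123 probe sets, of 18193 genes and 34945 probe sets in all. The rule used names only and no measured value, although the families were chosen with earlier results of these data known. Of the 59 genes, 57 belong to the carrier families, while Slc2a4rg-ps, a pseudogene of a regulator of Slc2a4, and Slc7a6os, the opposite-strand neighbour of Slc7a6, share the beginning of the symbol and are not carriers.

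Resting NK cells were obtained from spleens of 3 Runx3-/- and 3 WT mice of the ICR strain at 6 weeks of age, with 1 array per sample. Cells were enriched by negative selection and then sorted for DX5, an antigen (CD49b, encoded by Itga2) that basophils and some other blood cells carry as well as NK cells. Each sample is described as coming from an individual mouse, although the sex label reads male and female for all 6 samples. The question was which transcripts of resting NK cells respond to the loss of Runx3, a transcription factor of cytotoxic lymphocytes. Because cells were measured in bulk, fewer cells of a type and less RNA per cell cannot be told apart.

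The 6 families work in different ways. Slc2a genes encode the GLUT sugar carriers, which let sugars pass down their gradient, and Slc16a genes encode the MCT family, whose best known members move lactate and pyruvate together with a proton. Slc7a genes encode amino acid carriers, several of which reach the cell surface only when bound to the CD98 heavy chain encoded by Slc3a2. Slc1a and Slc38a carriers use sodium to bring in neutral or acidic amino acids such as glutamine. Activated lymphocytes, NK cells among them, are known to raise glucose and amino acid uptake when they grow, and the kinase complex mTORC1 and the transcription factor Myc take part in that response.

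Values are log2 signals as deposited, and a change is the mean of Runx3-/- minus the mean of WT on that scale. Between 15092 and 15392 of the 34945 named probe sets per array had a log2 signal of at least 5, the level taken here as background. Runx3 itself had signals of 7.76, 8.51 and 8.68 in Runx3-/- and 10.11, 11.56 and 10.73 in WT, and was 5.59-fold lower in Runx3-/- (limma adjusted p = 0.0565). Of the NK cell marker list, 9 of 10 genes were on the array and all 9 reached log2 5, with an array mean of 13.13 to 13.45 in Runx3-/- and 13.07 to 13.47 in WT. By limma, 1 of the 9 was lower in Runx3-/- at an unadjusted p under 0.05 with at least a 1.5-fold change, and none was higher. Eomes had signals of 13.00, 13.40 and 12.99 in Runx3-/- and 13.71, 13.81 and 13.99 in WT, with no overlap. The sorted antigen gene Itga2 changed by 0.41 (limma adjusted p = 0.555).

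Most of the carrier genes were either not detected or little different between the genotypes. Of the 59 genes, 27 reached log2 5 on at least 1 array and were tested, 25 of them carriers. The tested genes comprised 1 of 7 in Slc1a, 7 of 12 in Slc2a, 1 of 2 in Slc3a, 6 of 16 in Slc7a, 6 of 13 in Slc16a and 6 of 9 in Slc38a. The other 32 genes stayed at or below 4.35 on every array. They include Slc16a3, which encodes the lactate exporter MCT4 and reached 4.35 at most, and Slc7a11, which encodes the cystine carrier xCT and reached 3.57 at most. No fold is given for these 32 genes.

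With limma and Benjamini-Hochberg (BH) adjustment at 5%, 1 of the 27 genes passed, Slc16a7, which was lower in Runx3-/-. Over all 9545 genes tested, 0.608% passed. Slc16a7 reached log2 5 on its WT arrays alone, so it entered the test only through the genotype in which it was high, and without a filter on low values its limma adjusted p was 0.133. At the looser thresholds of the study, an unadjusted p under 0.05 with at least a 1.5-fold change, 6 of the 27 genes were called, or 22.2%, against a background of 13.8% of all genes. Higher in Runx3-/- were 4 genes, Slc7a8, Slc7a5, Slc16a4 and Slc2a6, which is 14.8% against a background of 4.89%. Slc16a4 reached log2 5 on 2 arrays, both Runx3-/-, so it too entered the test only through the genotype in which it was high. With values under log2 5 raised to 5 the call of Slc16a4 was lost and 3 genes were higher. Lower were 2 genes, Slc16a7 and Slc7a6os, which is 7.41% against a background of 8.86%. Without Runx3-/- replicate 1 the counts were 2 higher and 5 lower, and without WT replicate 1 they were 3 higher and 4 lower. Counted by probe set, 6 of 42 member probe sets were called, or 14.3% against 12.9% of all probe sets.

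The 2 genotypes did not overlap for 6 of the 27 genes, or 22.2%, close to the background of 22.8% of all genes. The median change of the 27 genes was -0.13, equal to the median of -0.13 over all genes tested. The fitted changes ran between -2.26 for Slc16a7 and 2.58 for Slc7a8, both of which rest in part on values below background, with 10 positive and 17 negative (13 and 14 after centring each array on its median), and 18 of the 27 were under 1.5-fold. Among the 143 tested of 288 other genes named Slc, 24 met the thresholds of the study, or 16.8%, with 6 higher and 18 lower. The difference between the member families and these other carriers was not tested.

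**Figure D1:**
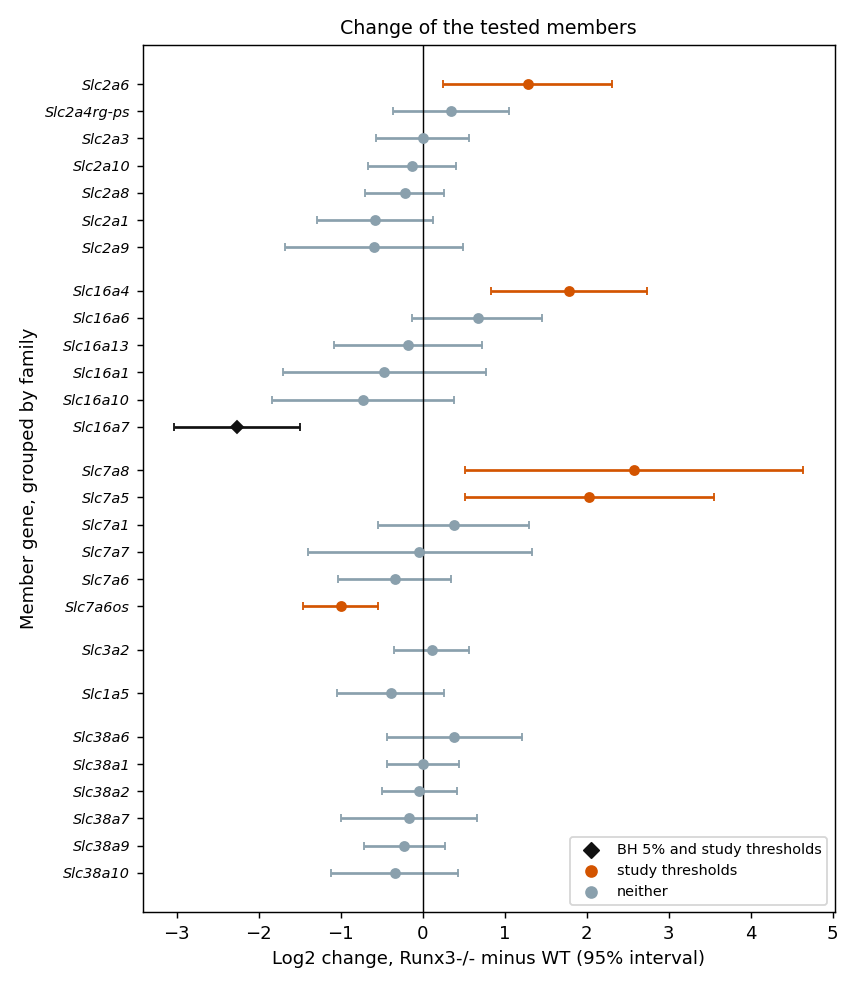
Log2 change, Runx3-/- minus WT, of each of the 27 tested genes (points) with its 95% interval from limma (lines). The fitted values of Slc16a7, Slc16a4, Slc7a8, Slc16a10, Slc16a13 and Slc7a7 rest in part on signals below log2 5, and 18 of the 27 genes changed by less than 1.5-fold.

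The 2 highest positive changes belonged to Slc7a8 and Slc7a5, which encode LAT2 and LAT1, the light chains that pair with the CD98 heavy chain and exchange large neutral amino acids such as leucine. Slc7a8 had signals of 9.69, 7.70 and 6.56 in Runx3-/- and 6.34, 3.90 and 5.96 in WT. Every Runx3-/- array lay above every WT array, but the Runx3-/- arrays spread over more than 3 log2 units and 1 WT array was below background. Slc7a8 was at least 4.64-fold higher in Runx3-/- with the low WT value raised to log2 5, and the fitted change was 2.58 (95% interval 0.52 to 4.64, limma adjusted p = 0.229). Its call at the thresholds of the study was lost without Runx3-/- replicate 1, where the change was 1.73, without WT replicate 2, where it was 1.83, and without a filter on low values.

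Slc7a5 had signals of 8.91, 8.37 and 6.97 in Runx3-/- and 5.03, 7.22 and 5.92 in WT. The lowest Runx3-/- array lay below the highest WT array, so the genotypes overlapped. Slc7a5 was 4.08-fold higher in Runx3-/-, a change of 2.03 (95% interval 0.51 to 3.55, limma adjusted p = 0.211). The call was lost without Runx3-/- replicate 1 (change 1.61), Runx3-/- replicate 2 (1.89) or WT replicate 1 (1.52), and with array weights. Slc3a2, the CD98 heavy chain that LAT1 and LAT2 need, had signals of 10.79, 10.65 and 10.61 in Runx3-/- and 10.38, 10.61 and 10.74 in WT. It changed by 0.11 (95% interval -0.35 to 0.57, limma adjusted p = 0.812), an interval narrower than those of both light chains.

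Slc2a6 encodes GLUT6, a sugar carrier found largely on membranes inside the cell. It had signals of 8.52, 6.73 and 7.48 in Runx3-/- and 5.89, 6.51 and 6.50 in WT. All Runx3-/- arrays were above all WT arrays, with replicate 2 of Runx3-/- close to 2 of the WT arrays. Slc2a6 was 2.43-fold higher in Runx3-/-, a change of 1.28 (95% interval 0.25 to 2.31, limma adjusted p = 0.229), and its call was lost without WT replicate 1, where the change was 1.08. Without Runx3-/- replicate 1 the change was 0.81 and the call remained.

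The MCT family held a called gene in each direction. Slc16a7, which encodes MCT2, a carrier with high affinity for pyruvate and lactate, had signals of 3.19, 4.36 and 3.58 in Runx3-/- and 6.04, 6.22 and 5.67 in WT. All WT arrays were above background and all Runx3-/- arrays below it, and the single probe set of the gene leaves no second reading. Slc16a7 was at least 1.97-fold lower in Runx3-/- with values under log2 5 raised to 5, a change of -0.98 (limma adjusted p = 0.109). The fitted change of -2.26 (95% interval -3.03 to -1.50, limma adjusted p = 0.0404) rests on values below background in Runx3-/-. It met the thresholds of the study in all 16 alternatives, with changes of -2.59 to -0.98, but passed BH 5% in only 4 of them and in none that left out an array.

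Slc16a4, which encodes MCT5, had signals of 4.30, 5.68 and 5.43 in Runx3-/- and 3.86, 2.90 and 3.29 in WT. The genotypes did not overlap, but only 2 of the 6 arrays reached log2 5, both of them Runx3-/-. Slc16a4 was at least 1.29-fold higher in Runx3-/-, and the fitted change of 1.79 (95% interval 0.83 to 2.74, limma adjusted p = 0.127) rests on values below background. With values under log2 5 raised to 5 the change was 0.37 and the call was lost.

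Slc7a6os, the neighbour of Slc7a6 that is not a carrier, had signals of 7.20, 7.22 and 7.23 in Runx3-/- and 8.01, 8.24 and 8.42 in WT. The genotypes did not overlap and the gene was 2.01-fold lower in Runx3-/- (change -1.0, 95% interval -1.46 to -0.55, limma adjusted p = 0.0849). A further probe set of Slc7a6os had signals of 6.30, 5.72 and 6.18 in Runx3-/- and 5.70, 6.51 and 6.15 in WT, a change of -0.06. The mean of its probe sets changed by -0.53 and did not meet the thresholds.

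**Figure D2:**
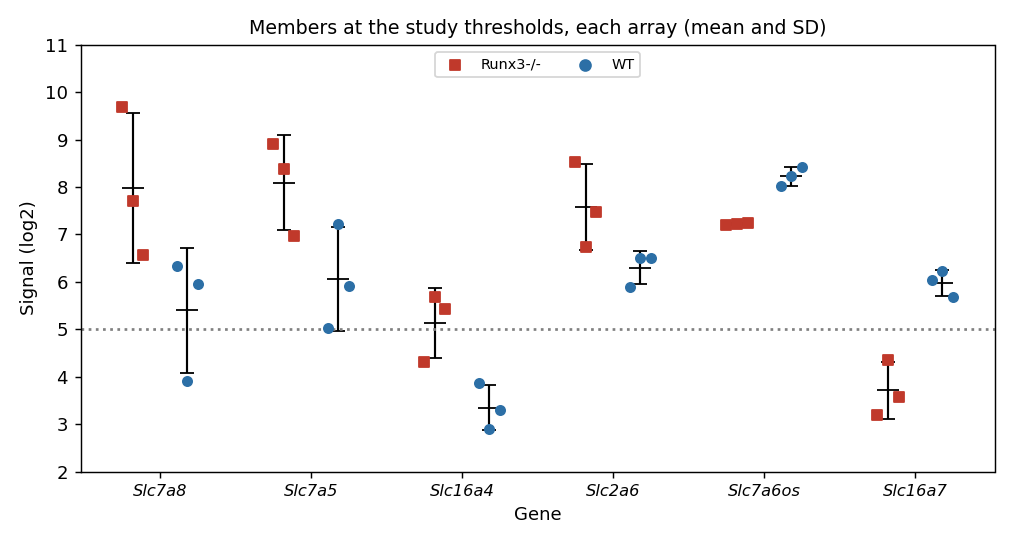
Log2 signal on each array of the 6 genes at the thresholds of the study, with Runx3-/- left of WT (points are arrays, bars the mean and SD of 3 arrays) and a dotted line at log2 5. Slc7a5 is the gene whose genotypes overlap, and all Runx3-/- arrays of Slc16a7 and all WT arrays of Slc16a4 lie below the dotted line.

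The promoters of 4 of these 6 genes, Slc7a8, Slc2a6, Slc16a4 and Slc7a6os, were in the RefSeq table used here, and the 250 bases before each start site are shown because RUNX proteins bind a known short DNA motif. The motif was searched as TGTGG or TGCGG, each followed by T or C, on both strands, and matches are in capitals. Sequences run 5′ to 3′ on the strand of the gene, in GRCm38.p6, with Slc7a8 at chr14:54781887-54782136 on the minus strand, Slc2a6 at chr2:27027999-27028248 on the minus strand, Slc16a4 at chr3:107290980-107291229 on the plus strand and Slc7a6os at chr8:106210934-106211183 on the minus strand.
Slc7a8: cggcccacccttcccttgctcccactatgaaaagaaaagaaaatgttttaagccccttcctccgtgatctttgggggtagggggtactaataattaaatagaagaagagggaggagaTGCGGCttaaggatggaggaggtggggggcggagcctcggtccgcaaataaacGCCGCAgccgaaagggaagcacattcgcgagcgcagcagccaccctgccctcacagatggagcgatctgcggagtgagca
Slc2a6: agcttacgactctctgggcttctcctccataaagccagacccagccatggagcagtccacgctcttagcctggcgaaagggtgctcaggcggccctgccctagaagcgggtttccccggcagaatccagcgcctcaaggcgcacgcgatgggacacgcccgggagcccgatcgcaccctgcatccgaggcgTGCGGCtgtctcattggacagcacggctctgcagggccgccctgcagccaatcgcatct
Slc16a4: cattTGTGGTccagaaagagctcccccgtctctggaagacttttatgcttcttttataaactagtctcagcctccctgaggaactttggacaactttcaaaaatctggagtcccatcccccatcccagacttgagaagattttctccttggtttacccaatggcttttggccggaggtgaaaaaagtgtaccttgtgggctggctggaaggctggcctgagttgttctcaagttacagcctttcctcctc
Slc7a6os: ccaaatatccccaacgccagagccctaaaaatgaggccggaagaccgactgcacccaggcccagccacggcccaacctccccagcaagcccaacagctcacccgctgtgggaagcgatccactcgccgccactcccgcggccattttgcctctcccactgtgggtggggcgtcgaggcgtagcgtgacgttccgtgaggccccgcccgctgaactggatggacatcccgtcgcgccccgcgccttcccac

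Slc7a8 held 2 matches. TGCGGC began 133 bases before the start site, and another TGCGGC lay on the opposite strand. The latter is printed above as GCCGCA, beginning 80 bases before the start site. Slc2a6 held TGCGGC beginning 59 bases before the start, and Slc16a4 held TGTGGT beginning 246 bases before it. Slc7a6os held none of the 4 hexamers in this window. Over all 32851 promoter windows of this length in the table, 38% held at least 1 such hexamer. Of 53 windows of member genes 35.8% did. Of 25 windows of 19 tested member genes 13 did, or 52.0%. The share over windows of all tested genes was not counted, so the 52.0% has no like background beside it. A match is a description of the letters and was not tested as a binding site.

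Of the 12 carriers listed as best known in lymphocytes, Slc7a5 met the thresholds of the study, Slc7a11 and Slc16a3 stayed below background, and the other 9, Slc3a2 above and the 8 genes described next, did not meet them, which does not show that they were equal. Slc2a3, which encodes the glucose carrier GLUT3, had signals of 13.06, 12.50 and 12.42 in Runx3-/- and 12.74, 12.43 and 12.81 in WT. Its change was 0.00 (95% interval -0.57 to 0.57, limma adjusted p = 1.0). Slc2a1, which encodes GLUT1, the main glucose carrier of growing lymphocytes, had signals of 11.50, 10.58 and 10.43 in Runx3-/- and 11.36, 11.36 and 11.52 in WT. One Runx3-/- array lay with the WT arrays and the other two were lower. Slc2a1 changed by -0.58 (95% interval -1.29 to 0.13, limma adjusted p = 0.388), and its other probe sets changed by -0.43 and -0.21. It met the thresholds without Runx3-/- replicate 1, where the change was -0.91, and with array weights.

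Among glutamine carriers, Slc38a1, which encodes SNAT1, had signals of 11.09, 11.05 and 11.28 in Runx3-/- and 11.10, 11.22 and 11.09 in WT. The change was 0.00 (95% interval -0.44 to 0.44, limma adjusted p = 1.0). Another probe set of Slc38a1 had signals of 8.76, 9.29 and 9.36 in Runx3-/- and 9.39, 9.67 and 9.55 in WT, a change of -0.39 with no overlap. Slc38a2, which encodes SNAT2, had signals of 12.39, 12.75 and 12.54 in Runx3-/- and 12.72, 12.50 and 12.58 in WT. The genotypes overlapped on this brightest probe set, with a change of -0.04 (95% interval -0.50 to 0.42, limma adjusted p = 0.935). Another probe set of Slc38a2 had signals of 9.78, 9.72 and 9.57 in Runx3-/- and 9.0, 9.39 and 8.96 in WT. There the genotypes did not overlap and the change was 0.57, so that the probe sets of Slc38a2 differed in sign.

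Slc1a5, which encodes the neutral amino acid exchanger ASCT2, had signals of 9.48, 9.65 and 10.15 in Runx3-/- and 9.73, 10.26 and 10.45 in WT, a change of -0.39 (95% interval -1.04 to 0.26, limma adjusted p = 0.516). It was the only Slc1a gene that reached log2 5. Slc7a1, which encodes the arginine and lysine carrier CAT1, had signals of 10.27, 10.26 and 11.09 in Runx3-/- and 9.40, 10.76 and 10.32 in WT, a change of 0.38 (95% interval -0.54 to 1.30, limma adjusted p = 0.661). Slc7a6, which encodes y+LAT2, another light chain of CD98, had signals of 8.05, 7.51 and 7.51 in Runx3-/- and 7.54, 8.46 and 8.09 in WT, a change of -0.34 (95% interval -1.03 to 0.34, limma adjusted p = 0.590). In these genes the arrays of the genotypes were interleaved. Slc16a1, which encodes the lactate carrier MCT1, had signals of 8.96, 10.79 and 9.68 in Runx3-/- and 9.48, 10.37 and 10.99 in WT, a change of -0.47 (95% interval -1.71 to 0.77, limma adjusted p = 0.687). Its arrays spread widely in both genotypes, and a change of more than 1.5-fold in either direction lies within the interval.

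**Figure D3:**
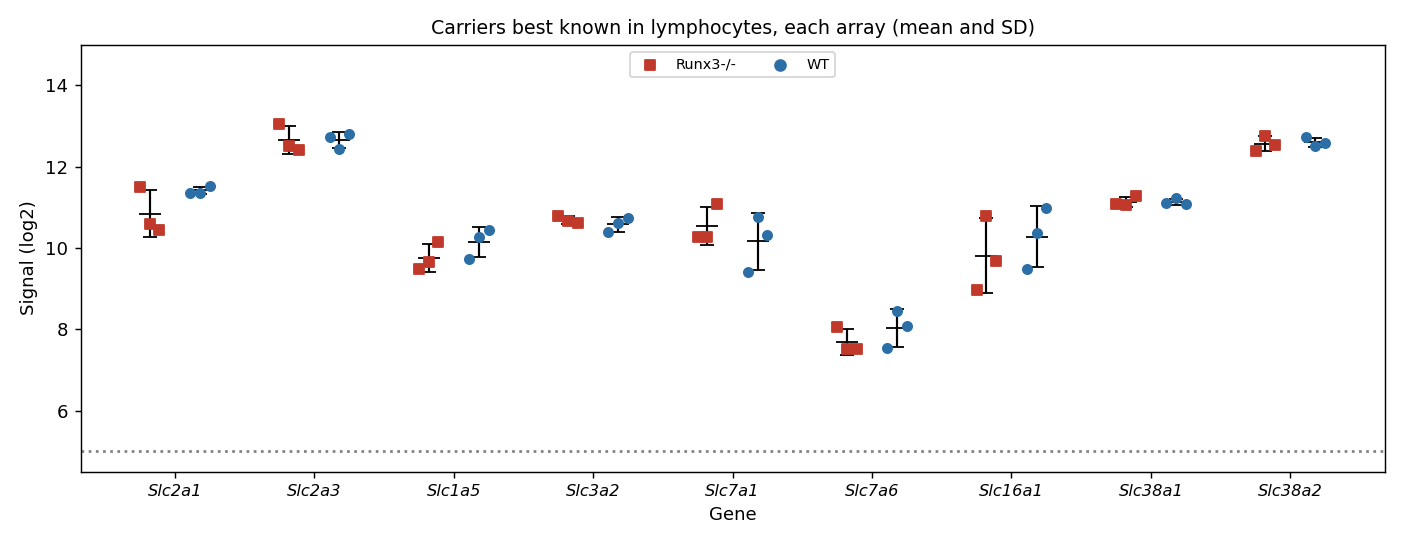
Log2 signal on each array of 9 carriers best known in lymphocytes, with Runx3-/- left of WT (points are arrays, bars the mean and SD of 3 arrays) and a dotted line at log2 5. The genotypes overlap for all 9 genes, and the changes run from -0.58 for Slc2a1 to 0.38 for Slc7a1.

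The remaining tested genes lay between -0.73 and 0.67 and none met the thresholds. Slc16a6, which encodes MCT7, had the most positive change of these, with signals of 9.57, 8.91 and 8.95 in Runx3-/- and 9.16, 8.09 and 8.18 in WT. The change of 0.67 (limma adjusted p = 0.381) met the thresholds without WT replicate 1, with array weights and with the replicate number as a block. Slc16a10, which encodes the aromatic amino acid carrier TAT1, changed by -0.73 (limma adjusted p = 0.477) and met the thresholds without Runx3-/- replicate 1, without WT replicate 1 and with array weights. Its signals of 4.92 and 4.99 in Runx3-/- replicates 2 and 3 were below background. Slc2a9, which encodes a urate carrier, changed by -0.59 (limma adjusted p = 0.553) and met the thresholds without WT replicate 2. Slc2a8, which encodes GLUT8, had signals of 6.57, 6.11 and 6.56 in Runx3-/- and 6.61, 6.64 and 6.65 in WT. Its genotypes did not overlap, yet the difference was 1.17-fold.

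Of the Slc38a genes beyond SNAT1 and SNAT2, Slc38a6 changed by 0.38, Slc38a7, which encodes a lysosomal glutamine carrier, by -0.17, Slc38a10 by -0.34 and Slc38a9, which encodes the lysosomal arginine sensor of mTORC1, by -0.23. The 5 probe sets of Slc38a10 changed by -0.41 to -0.15 and the 3 of Slc38a9 by -0.23 to -0.11. Slc38a10 met the thresholds as lower in Runx3-/- without Runx3-/- replicate 1. The other changes were -0.18 for Slc16a13, -0.13 for Slc2a10, 0.34 for Slc2a4rg-ps and -0.04 for Slc7a7. Slc16a13 was below background at 4.66 in WT replicate 1, and without that array it met the thresholds as lower in Runx3-/-. Slc7a7, which encodes the CD98 light chain y+LAT1, reached log2 5 on 1 array, a Runx3-/- array at 5.67. Of 10 members with at least 2 probe sets above background, 2 had probe sets of opposite sign, Slc2a10 and Slc38a2, and 2 had probe sets that differed by over 1.5-fold, Slc38a2 and Slc7a6os.

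Genes that are known to control nutrient carriers were taken as a list of 42 transport regulators, comprising mTORC1 and its amino acid sensing arm, Myc, Hif1a, proteins that remove carriers from the surface and chaperones of MCT carriers. Of these, 38 were tested. None passed BH 5% in limma, and 3, or 7.89%, had an unadjusted p under 0.05 and met the thresholds of the study, all of them lower in Runx3-/-, near the background of 8.86% of all genes lower. Without WT replicate 1 the count was 5, and with the mean of all probe sets it was 0. Their median change was -0.13, as over all genes. Rptor, the raptor subunit of mTORC1, had signals of 9.02, 9.08 and 9.19 in Runx3-/- and 10.01, 10.35 and 10.28 in WT. It was 2.17-fold lower in Runx3-/- with no overlap (limma adjusted p = 0.0636), though the mean of all its probe sets changed by -0.29. Nedd4l, a ubiquitin ligase that takes membrane carriers and channels from the surface, had signals of 8.72, 8.25 and 8.57 in Runx3-/- and 9.45, 9.71 and 9.48 in WT, and was 2.04-fold lower in Runx3-/- with no overlap (limma adjusted p = 0.0968). Another probe set of Nedd4l changed by -0.16.

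Emb encodes embigin, which in rat is known as the membrane partner of MCT2. Its signals were 11.45, 11.51 and 11.69 in Runx3-/- and 11.77, 12.49 and 12.50 in WT. Emb was 1.63-fold lower in Runx3-/- with no overlap (limma adjusted p = 0.246), and its call was lost without Runx3-/- replicate 1 or 2 and without WT replicate 2 or 3, after centring each array on its median and with the mean of all probe sets. Other probe sets of Emb changed by -0.95 and 0.30. Bsg, which encodes basigin, the partner of MCT1 and MCT4, had signals of 9.80, 9.55 and 9.75 in Runx3-/- and 10.05, 9.86 and 10.39 in WT. The change in Bsg was -0.40 with no overlap (95% interval -0.91 to 0.10, limma adjusted p = 0.398). Myc had signals of 9.2, 8.60 and 9.35 in Runx3-/- and 9.51, 9.44 and 10.25 in WT, with no overlap. It changed by -0.68 (95% interval -1.40 to 0.04, limma adjusted p = 0.330) and met the thresholds with trend and robust moderation and with the replicate number as a block. Mtor changed by -0.42 (limma adjusted p = 0.390), Hif1a by -0.05 (limma adjusted p = 0.933) and Txnip, a brake on glucose uptake, by 0.53 (limma adjusted p = 0.523). Other probe sets of Hif1a changed by -0.39, with no overlap, and by 0.56, with some signals below background.

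A list of 28 carriers and uptake receptors outside the 6 families, of which 23 were tested, held called genes in both directions. Of these, 3 were higher and 4 lower at the thresholds of the study, or 30.4% in all against the background of 13.8%, and the median change was 0.04. One of the higher genes, Cd36, reached log2 5 on Runx3-/- arrays alone. With values under log2 5 raised to 5 its call was lost and the count was 6, against a background of 12.4% of all genes. Slc15a4, which encodes an endolysosomal carrier of histidine and small peptides, had signals of 9.65, 10.22 and 10.14 in Runx3-/- and 11.41, 11.51 and 11.31 in WT. It was the 1 gene of the list that passed BH 5% and fell by 1.41 on the log2 scale, 2.65-fold (limma adjusted p = 0.0486). Slc15a4 met the thresholds of the study in all 16 alternatives but passed BH 5% in only 3 of them and in none that left out an array, and the mean of all its probe sets changed by -0.71. Slc6a9, which encodes a glycine carrier, had signals of 8.56, 6.82 and 7.34 in Runx3-/- and 5.74, 6.28 and 6.33 in WT, and was 2.74-fold higher in Runx3-/- (limma adjusted p = 0.187). Slc43a2, which encodes LAT4, a further carrier of large neutral amino acids, had signals of 10.49, 9.88 and 9.86 in Runx3-/- and 9.53, 8.87 and 9.42 in WT, and was 1.74-fold higher in Runx3-/- (limma adjusted p = 0.229). The call of Slc43a2 was lost without Runx3-/- replicate 1 and without WT replicate 2. The genotypes did not overlap for 7 of the 23 tested genes, or 30.4%, against a background of 22.8% of all genes. Among them were Slc15a4, Slc6a9 and Slc43a2, and the lower genes Slc11a2, Slc44a1 and Slc27a4 described next.

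Cd36, a scavenger receptor that takes up fatty acids, had signals of 5.40, 5.06 and 3.36 in Runx3-/- and 3.58, 3.42 and 3.22 in WT. It entered the test only through the genotype in which it was high. Cd36 was at least 1.11-fold higher in Runx3-/-, with overlap between the genotypes (limma adjusted p = 0.303), and kept its call in 5 of 14 alternatives. With values under log2 5 raised to 5 the change was 0.15. Lower in Runx3-/- were Slc11a2, an iron carrier, by 1.90-fold (limma adjusted p = 0.218), Slc44a1, a choline carrier, by 2.02-fold (limma adjusted p = 0.161) and Slc27a4, a fatty acid carrier, by 1.82-fold (limma adjusted p = 0.187). A further probe set of Slc11a2 changed by -1.03, and the call of the gene was lost without Runx3-/- replicate 1 and with the mean of all probe sets.

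**Figure D4:**
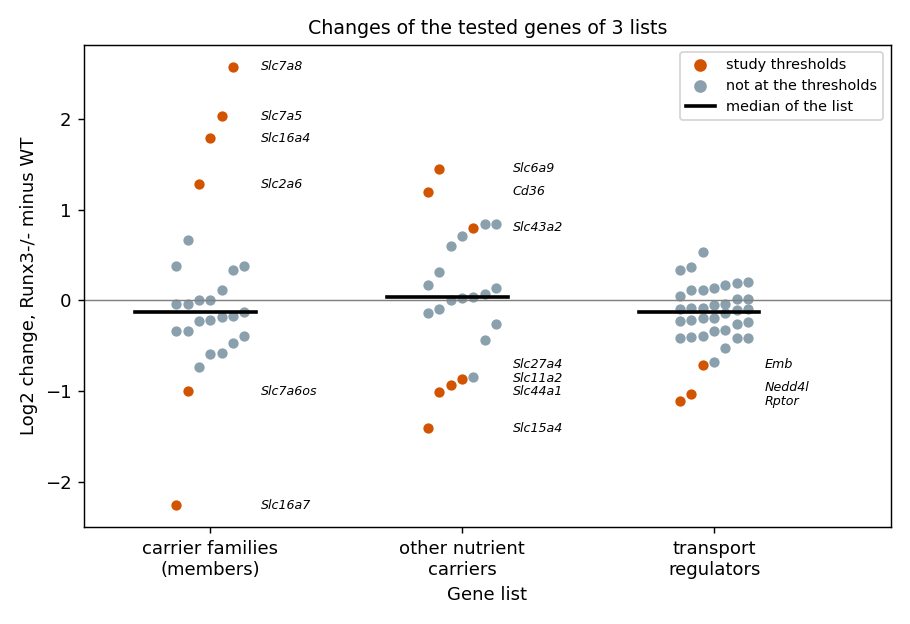
Log2 change, Runx3-/- minus WT, of each tested gene (points) of the carrier families, the other nutrient carriers and the transport regulators, with the median of each list as a bar. The medians are -0.13, 0.04 and -0.13, and the named points are the genes at the thresholds of the study.

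Markers of other cells that the sort could hold also differed between the arrays, and these values stand beside the higher carriers. The mean of 9 basophil and mast cell markers was 11.04, 9.92 and 9.79 in Runx3-/- and 8.87, 8.41 and 8.84 in WT, with 7 of the 9 genes higher in Runx3-/- at the thresholds of the study and none lower. The mean of 9 B cell and plasma cell markers was 7.58, 6.98 and 6.79 in Runx3-/- and 6.52, 5.59 and 5.71 in WT, with 4 of 8 tested genes higher. Neither list overlapped between the genotypes. The mean of 10 macrophage and monocyte markers was 9.87, 8.10 and 5.30 in Runx3-/- and 7.32, 6.91 and 6.76 in WT, with 1 gene higher, so that Runx3-/- replicates 1 and 2 were the highest of the 6 arrays and Runx3-/- replicate 3 the lowest. C1qa, a defining macrophage gene, had signals of 8.80, 5.82 and 2.18 in Runx3-/- and 5.07, 4.26 and 4.15 in WT. The genes of the list did not all follow C1qa on Runx3-/- replicate 3. Adgre1 had signals of 8.85, 8.33 and 7.05 in Runx3-/-, all above the highest WT array at 6.53. Ccr2 was at 9.48 on Runx3-/- replicate 3, above WT replicate 3 at 9.01 and below the other WT arrays. The remaining genes of the list were, like C1qa, below every WT array on that replicate.

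Within Runx3-/-, Slc7a8, Slc7a5 and the means of the macrophage, basophil and B cell lists were all highest in replicate 1 and lowest in replicate 3, and Slc2a6 was also highest in replicate 1. In Runx3-/- replicate 3, where the macrophage list was at its lowest, Slc7a8 was at 6.56, Slc7a5 at 6.97 and Slc2a6 at 7.48, above the WT means of 5.40, 6.05 and 6.30. Against single arrays, Slc7a5 was there below WT replicate 2 at 7.22, and Slc7a8 was close to WT replicate 1 at 6.34. The means of the basophil and mast cell list and of the B cell and plasma cell list were higher on Runx3-/- replicate 3 than on every WT array. Single genes of both lists, such as Cd200r3 and Jchain, were not. Markers of T cells had array means of 4.63 to 5.11 in Runx3-/- and 4.71 to 5.12 in WT, and erythroid markers stayed at 3.12 to 3.66 in Runx3-/- and 3.62 to 3.77 in WT. Array means of neutrophil markers were 4.22 to 6.10 in Runx3-/- and 3.67 to 7.02 in WT. Those of dendritic cells were 4.85 to 5.09 in Runx3-/- and 4.82 to 5.42 in WT. Those of platelets were 6.21 to 7.31 in Runx3-/- and 5.41 to 7.28 in WT. At the thresholds of the study, 1 of 7 tested neutrophil markers was higher in Runx3-/- and 1 lower. Of 5 tested platelet markers 1 was higher and 1 lower, and of 6 tested dendritic cell markers 1 was lower. The part of other cells in the values of Slc7a8, Slc7a5 and Slc2a6 was not tested.

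**Figure D5:**
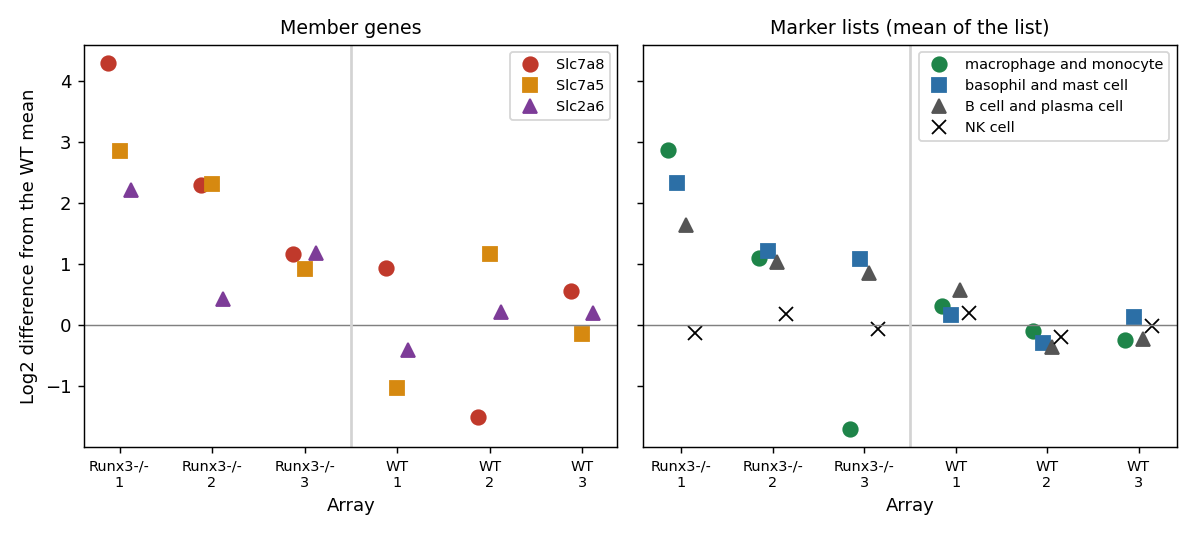
Difference of each array from the WT mean on the log2 scale for Slc7a8, Slc7a5 and Slc2a6 (left panel) and for the mean of 4 marker lists (right panel), with Runx3-/- arrays left of WT arrays in each panel. Slc7a8, Slc7a5, Slc2a6 and the lists of macrophage, basophil and B cell markers are all highest on Runx3-/- replicate 1, while the NK cell list stays within 13.07 to 13.47 on all 6 arrays.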

How the data were processed

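Total RNA of sorted splenic NK cells was hybridised to Affymetrix mouse expression arrays, 1 per sample. The authors used the GC-RMA method of Partek, and the deposited values are log2 signals per probe set. GC-RMA removes a background that depends on base content and brings arrays to 1 distribution, so a change in total RNA cannot be seen and low values follow the background model. The background level of the study is not given in its methods or labels, so a log2 signal of 5 was taken. Gene names come from the platform annotation, which listed 1 symbol for 34945 of 45101 probe sets, several for 932 and none for 9160, beside 64 controls. Symbols matched by gene identifier to RefSeq annotation of GRCm38.p6 for 34741 of them. The array's own build is not named, so coordinates are given for RefSeq promoters only.

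For each of 18193 genes the brightest probe set on average was kept, and 9545 genes at log2 5 or more on at least 1 array were tested by limma 3.58.1 (lmFit and eBayes) in R 4.3.3 with all 6 arrays, no covariate and BH adjustment over all 9545 genes. The study's thresholds were taken from its methods, and its exact test is not named there. Where an array of the lower group was under log2 5, the fold is a bound ("at least"), computed after lifting lower values to 5. The members and lists were chosen with earlier results of these data known. Values on all arrays are given for members that met the study's thresholds, for members whose genotypes did not overlap at 1.5-fold or more and for a set of carriers best known in lymphocytes. From the lists, the called genes and Myc, Hif1a, Mtor, Txnip, Bsg and Emb are named. Values of Slc16a6, Slc2a8, C1qa, Adgre1, Ccr2, Eomes and further probe sets are given outside this rule and were chosen after their values were seen. The fit was tested on simulated data. There were 16 alternatives, which changed the filter on low values, the scaling of arrays, the treatment of values under log2 5, the moderation or weights of limma, the choice of probe set or the arrays used, or added the replicate number as a block.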

Additional observations from a re-analysis of the deposited data

How the results depend on the processing

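By limma with BH adjustment, Slc16a7 was the 1 member that passed 5%. The count was 0 after centring each array on its median, after quantile normalization, with the mean of all probe sets, without a filter on low values, with values under log2 5 raised to 5 and in each fit that left out an array (lowest 0, highest 0), while 5 to 9 members had an unadjusted p under 0.05 over the 16 alternatives. Over all genes 58 passed, against 128 without WT replicate 1 and 0 without each of the others in turn. With array weights 3 members passed, comprising Slc16a4, Slc16a7 and Slc7a6os. The number of members at the study's thresholds ran over the alternatives between 4 and 9, with 5 to 7 when an array was left out. The number lower was 5 without Runx3-/- replicate 1, 4 without WT replicate 1 and 5 with array weights, and the number higher was 2 without Runx3-/- replicate 1. The median change of the members was -0.01 after centring, as was that of all genes, and lay between -0.21 and -0.03 when an array was left out. After centring, 13 of the 27 changes were positive and 14 negative. With the replicate number as a block, 0 members passed BH 5% and 7 met the study's thresholds. Arrays with the same number had correlations of deviations of 0.065, -0.186 and 0.154, so the numbers were not taken to pair the mice. No called member changed direction in any alternative. Precision is limited by having 3 arrays per genotype, and signals near log2 5 give a bound only.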
